A study of Homo sapiens with 12 samples.

Results

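The genes described here are 48 that copy DNA or supply its building blocks: the MCM2 to MCM7 helicase and the factors that load and start it, the replicative polymerases with their clamp, ligase and single-strand binding protein, 5 enzymes of deoxynucleotide supply, and 3 regulators of S phase entry. They were chosen by name and function, but with earlier results of these data known, so the choice was not independent of them. They are the rows of the deposited count table whose Ensembl identifier maps to a listed symbol, 48 of its 21569 genes. The study sequenced RNA of TC71, a line of human Ewing sarcoma cells, in 12 libraries, 3 for each of 4 groups: wild-type cells, 2 clones labelled as ID2 knockouts (clone 1 and clone 2), and a line labelled as the rescue of clone 2. No group is labelled with a drug or a time point, and all were grown alike in serum-containing DMEM. Each line labelled knockout is a single clone and the rescue is a line derived from 1 of them, so the loss of ID2 and other differences between cloned lines cannot be told apart. The labels give neither the method of knockout nor the construct of the rescue. Separate cultures behind the 3 libraries of a group are not mentioned either, and the p-values therefore cover only the spread among these libraries, which may be technical.

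DNA replication starts at origins marked by the origin recognition complex, where CDC6 and CDT1 load the MCM2 to MCM7 ring in G1 phase. In S phase CDC45 and the GINS complex join the ring to form the active helicase, polymerase alpha with its primase lays down primers, and polymerases delta and epsilon extend them on the PCNA clamp. Most of these genes are transcribed under E2F factors, which the retinoblastoma protein RB holds inactive until cyclin-dependent kinases, cyclin E with CDK2 among them, phosphorylate it. ID2 lacks the basic region through which helix-loop-helix proteins bind DNA, pairs with E proteins and so keeps them off DNA, and has been described as a partner of RB. In bulk RNA such as this, fewer cells in S phase and less RNA per cell cannot be told apart.

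E2F binding words are the feature that the promoters of these genes are known for, so the promoters of 4 members are shown. MCM6, TYMS and E2F1 fell in both clones, and CCNE1 fell in clone 1 and rose in clone 2. The sequences are the RefSeq windows before the most upstream RefSeq start of each gene, on build GRCh38.p14, 5′ to 3′ on the gene's strand, and capitals mark E2F words. The words searched were TTTCCCGC, TTTGGCGC, TTTGCCGC and TTTCGCGC, on either strand. MCM6, a helicase subunit that fell in both clones, is shown at chr2:135876444-135876693 on the minus strand, with 4 matches that overlap in pairs between 152 and 79 bases before the start. TYMS, thymidylate synthase, is shown at chr18:657403-657633 on the plus strand, with 1 match from 39 to 32 bases before the start. E2F1, itself an E2F factor, is shown at chr20:33686386-33686635 on the minus strand, with 2 matches at 33 to 26 and 20 to 13 bases before the start. CCNE1, which encodes cyclin E1 and rose in clone 2, is shown at chr19:29811741-29811927 on the plus strand and held none of these words. In GENCODE 29 the exons of 3 of these genes begin further upstream, so that the last 30 bases shown for TYMS and CCNE1 and the last 19 for E2F1 lie in an exon there, with the TYMS match and most of the second E2F1 match among them.
MCM6: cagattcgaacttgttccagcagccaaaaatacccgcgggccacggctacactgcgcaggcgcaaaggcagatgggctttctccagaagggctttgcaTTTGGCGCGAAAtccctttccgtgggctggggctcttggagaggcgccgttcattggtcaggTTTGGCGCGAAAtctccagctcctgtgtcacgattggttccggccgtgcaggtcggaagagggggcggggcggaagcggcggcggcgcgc
TYMS: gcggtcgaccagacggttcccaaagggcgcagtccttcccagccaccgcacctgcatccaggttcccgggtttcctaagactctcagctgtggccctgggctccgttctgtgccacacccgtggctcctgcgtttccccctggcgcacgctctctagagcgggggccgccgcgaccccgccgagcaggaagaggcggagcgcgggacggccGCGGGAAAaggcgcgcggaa
E2F1: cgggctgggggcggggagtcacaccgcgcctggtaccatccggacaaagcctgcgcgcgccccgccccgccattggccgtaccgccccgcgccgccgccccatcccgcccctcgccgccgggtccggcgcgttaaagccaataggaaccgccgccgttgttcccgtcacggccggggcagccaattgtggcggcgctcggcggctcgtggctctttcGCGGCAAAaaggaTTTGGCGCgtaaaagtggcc
CCNE1: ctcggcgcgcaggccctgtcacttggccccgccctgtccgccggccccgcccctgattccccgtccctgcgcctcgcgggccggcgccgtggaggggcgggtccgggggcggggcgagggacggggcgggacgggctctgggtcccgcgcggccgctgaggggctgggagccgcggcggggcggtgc

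Of the 48 genes 41 had a window of 250 bases in the promoter table, 54 windows in all since some genes have several starts. MCM4, MCM5, GINS4, CCNE2, POLD3, RPA2 and RPA3 were not in it. An E2F word stood in 15 of the 54 windows (27.8%), 1 window each of 15 genes, against 2.79% of all 35116 windows of the table and 3.9% of the 16695 windows of the other genes tested. Those 15 genes were MCM3, MCM6, MCM7, ORC3, CDT1, GINS2, POLA1, POLA2, POLE, PCNA, RFC3, LIG1, TYMS, DUT and E2F1. The CCAAT box, CCAAT on either strand, stood in 53.7% of the windows against 32% of all. The E-box CAGGTG, a word that E proteins bind, stood in 4 of the windows (7.41%) against 17.5% of all, and CAGCTG in 3 (5.56%) against 14%. The E-box CACGTG went the other way, in 5 windows (9.26%) against 6.34% of all. TTTGAA, the word searched for the cell cycle homology region, stood in 2 (3.7%) against 13.3%. A match is a run of letters and not a measured site. In clone 1, 13 of the 15 genes with an E2F word and 22 of the 26 without one fell, where 30.7% of all genes tested fell. In clone 2, 13 of the 15 and 16 of the 26 fell, against 30.6% of all genes tested. There 1 of the 15, ORC3, and 2 of the 26 rose, against 31.5%. The promoters shown do not stand for all: MCM2 held no such word and fell in both clones.

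Libraries held between 19420408 and 29748084 counts, so that 1 count was under 0.1 CPM (counts scaled to a common library size, after TMM normalisation). The median coefficient of variation of the 48 genes over the 3 libraries of a group was between 2.37% and 2.85%. Wild-type libraries held 77.9 ± 0.657 CPM (SD, n = 3) of the targeted gene's RNA, ID2, clone 1 held 18.1 ± 0.777, clone 2 held 50.9 ± 3.16 and the libraries labelled rescue held 41.5 ± 0.537. In these it did not rise above clone 2 but fell by 0.29 on the log2 scale (SE 0.047; edgeR, Benjamini-Hochberg adjusted p = 3.52e-06), which goes against the label at the RNA level. ID2 RNA remained in both clones, where it fell by 2.11 on the log2 scale (SE 0.051) in clone 1 and by 0.62 (SE 0.044) in clone 2. Protein of ID2 was not measured, so whether either clone lacks it cannot be read from these counts. All 10 Ewing sarcoma markers examined had reads in every group, with summed levels of 3448 to 4121 CPM. Of 7 blood cell markers 3 were in the table, with a sum of at most 0.977 CPM. Markers of other lineages moved with the groups: 5 of 7 epithelial markers were in the table and summed to between 884 and 951 CPM in clone 1 against 76.9 to 191 in the other groups. The 7 fibroblast markers summed to between 352 and 378 CPM in clone 1, 149 to 176 in wild-type and clone 2, and 41.2 to 49.0 in the libraries labelled rescue. Their part in the results on replication genes was not tested.

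Most of the 48 genes fell in each clone labelled knockout, and most were higher in the libraries labelled rescue than in clone 2. All 48 passed the filter on low counts. In clone 1 against wild-type 40 of the 48 (83.3%) fell and 1 rose, at an adjusted p under 0.05 in edgeR's quasi-likelihood test, while 30.7% of all 17084 genes tested fell and 30.8% rose. Their median log2 fold change was -0.31, and that of all genes tested was 0.01. In clone 2 against wild-type 34 (70.8%) fell and 4 rose, where 30.6% of all genes fell and 31.5% rose. There the median was -0.23, against 0.01 over all genes. These 2 comparisons share the wild-type libraries. The changes were mostly small: tested against a change of 1.2-fold, 20 genes fell in clone 1, where 13.6% of all genes did, and 18 fell in clone 2, where 15.4% did. By that rule 1 gene rose in clone 2, against 19.2% of all genes, and 0 rose in clone 1, against 18.8%.

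**Figure D1:**
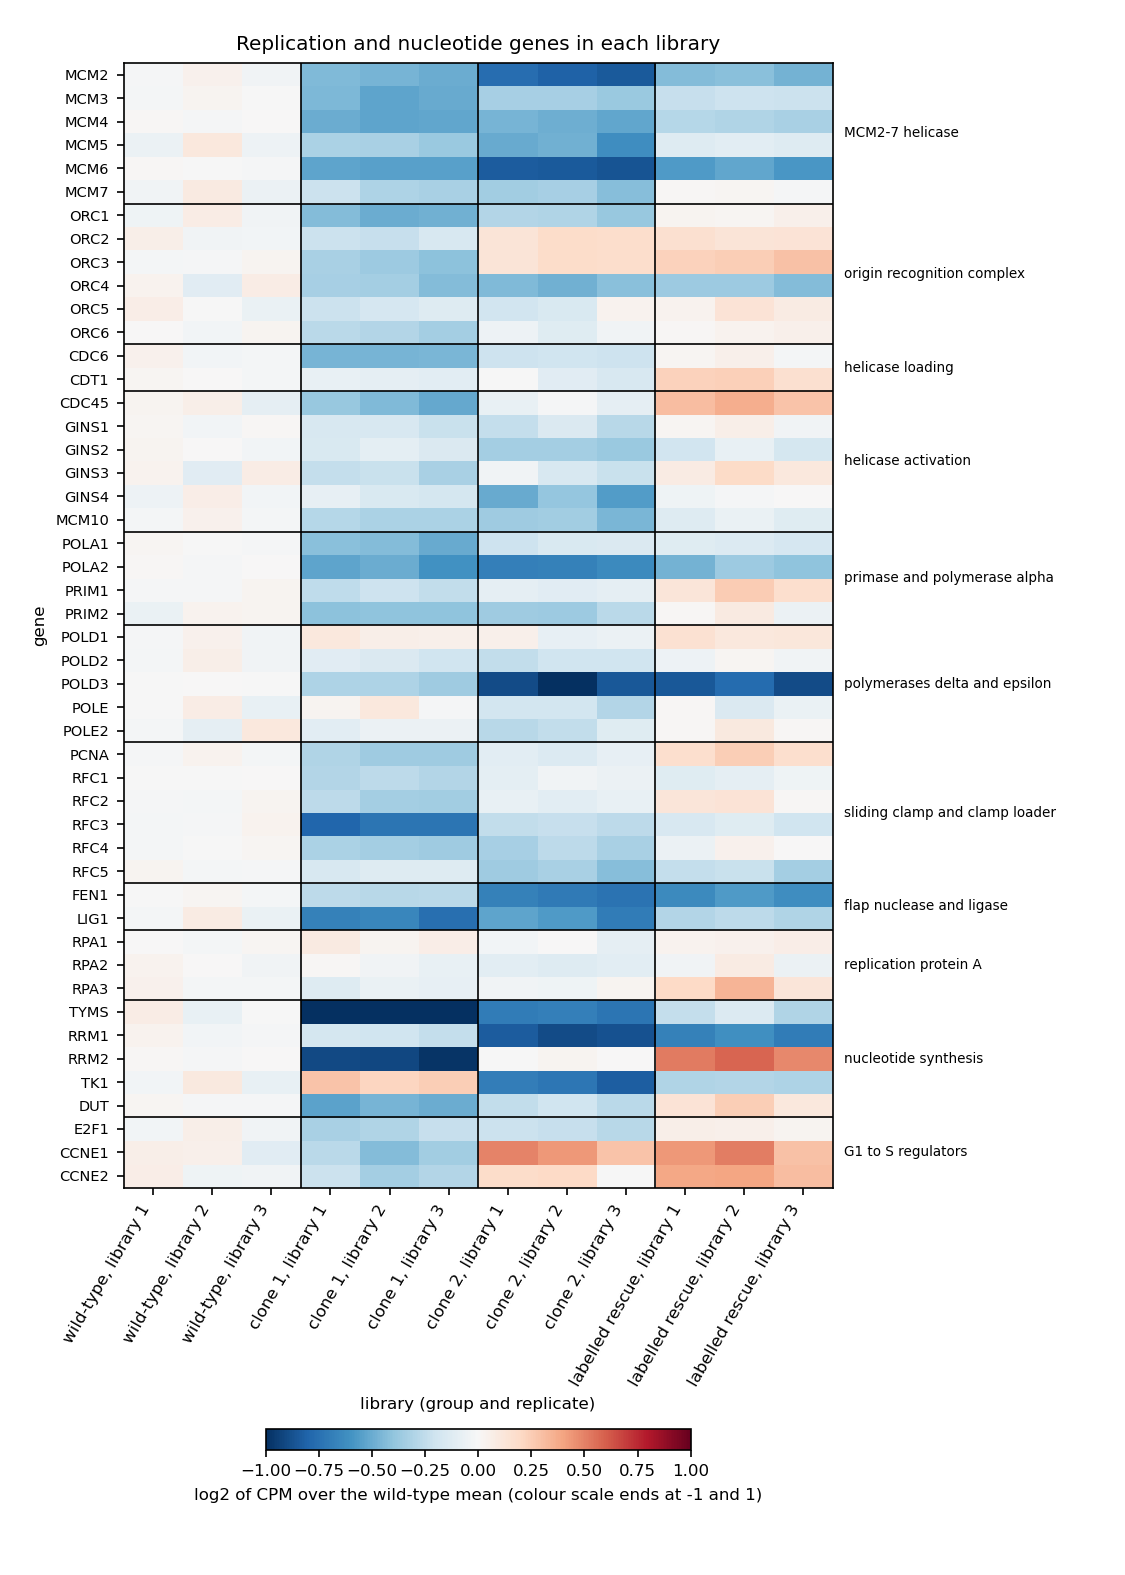
Level of each of the 48 genes in each of the 12 libraries, as the log2 of CPM minus the gene's wild-type mean, in rows ordered by role and columns ordered by group. Blue (below wild-type) fills most rows of clone 1 and clone 2, and the libraries labelled rescue are closer to wild-type, except for genes such as POLD3, FEN1 and RRM1.

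The sum of the 48 genes was also lower in both clones. It was 7926 to 8146 CPM in the wild-type libraries, 6280 to 6473 in clone 1, 6180 to 6334 in clone 2 and 7391 to 7650 in the libraries labelled rescue. As a share of the wild-type mean this was 79.4% in clone 1, 78.3% in clone 2 and 93.6% in the libraries labelled rescue. The libraries of clone 1 and clone 2 overlapped in this sum, and neither overlapped with wild-type or with the libraries labelled rescue. Clone 1 had the lowest of the 4 group means for 26 genes and clone 2 for the other 22. Wild-type had the highest for 22, the libraries labelled rescue for 22, clone 1 for 3 and clone 2 for 1.

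**Figure D2:**
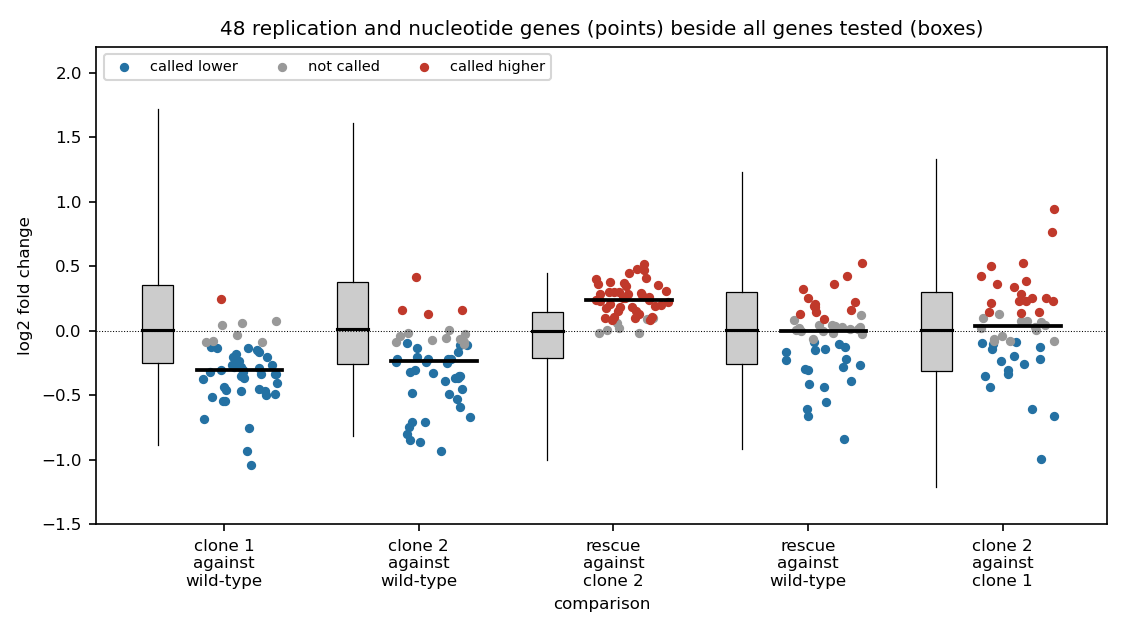
Log2 fold change of each of the 48 genes (points, coloured by call at an adjusted p under 0.05, with a line at their median) in the 5 comparisons, beside all 17084 genes tested (box: middle 50% with the median; whiskers: 5% and 95% quantiles). The points centre on -0.31 and -0.23 in the clones and on 0.24 in the libraries labelled rescue against clone 2, and spread to both sides of 0 in the last 2 comparisons.

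The MCM2 to MCM7 ring, which unwinds the DNA ahead of the fork, fell as a whole: all 6 members fell in both clones and all 6 rose from clone 2 to the libraries labelled rescue. MCM2 (ENSG00000073111, hg38 chromosome 3, 127598223 to 127622436, plus strand) was at 454, 472 and 447 CPM in wild-type, 337, 331 and 325 in clone 1, 269.8, 261 and 256 in clone 2, and 339.9, 343 and 331 in the libraries labelled rescue. MCM6 (ENSG00000076003, chromosome 2, 135839626 to 135876426, minus strand), whose promoter with 4 E2F words is shown above, was at 302, 297 and 297 CPM in wild-type, 207, 204 and 204 in clone 1, 168, 166 and 164 in clone 2, and 202, 209 and 199 in the libraries labelled rescue. In both genes wild-type was highest and clone 2 lowest, with no overlap, and the libraries labelled rescue overlapped with clone 1. MCM2 fell by 0.47 on the log2 scale in clone 1 (SE 0.031, adjusted p = 1.68e-16) and by 0.80 in clone 2 (SE 0.032, adjusted p = 9.91e-24). MCM6 fell by 0.54 (SE 0.031, adjusted p = 1.05e-18) and by 0.85 (SE 0.031, adjusted p = 1.46e-24).

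MCM3 and MCM4 fell in both clones by more similar amounts. MCM3 was at 506, 522 and 512 CPM in wild-type, 377, 357 and 362 in clone 1, 407, 407 and 396 in clone 2, and 437, 445 and 442 in the libraries labelled rescue. MCM4, on chromosome 8, was at 726, 716 and 725 CPM in wild-type, 513, 502 and 504 in clone 1, 523, 516 and 504 in clone 2, and 592, 585 and 575 in the libraries labelled rescue. For MCM3 the 4 groups did not overlap, whereas for MCM4 clone 1 and clone 2 did, with a log2 difference of 0.02 (SE 0.029, adjusted p = 0.519). Against wild-type MCM4 fell by 0.51 in clone 1 and 0.49 in clone 2, while the median of the other genes of chromosome 8 was -0.21 and -0.22.

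MCM5 and MCM7 returned furthest towards wild-type. MCM5 was at 303, 338 and 304 CPM in wild-type, 254, 252 and 244 in clone 1, 222, 226 and 205 in clone 2, and 288, 292 and 288 in the libraries labelled rescue. MCM7 was at 544, 596 and 538 CPM in wild-type, 481, 451 and 447 in clone 1, 440.2, 444 and 417 in clone 2, and 563, 568 and 554 in the libraries labelled rescue. For MCM7 the libraries labelled rescue lay within the wild-type range, with a log2 difference of 0.01 (SE 0.035, adjusted p = 0.885). For MCM5 they were just under it, by -0.12 (SE 0.037, adjusted p = 0.00407), and this call was lost without wild-type replicate 2, with a log2 fold change of -0.07, and with upper quartile scaling, with -0.08. MCM2, MCM3, MCM4 and MCM6 stayed below wild-type there, by between 0.22 and 0.56 on the log2 scale.

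The ring holds 1 copy of each subunit, but the RNA levels per length were unequal. In wild-type MCM7 had 189 CPM per kilobase of its principal transcript, MCM4 had 173, MCM3 had 159.9, MCM2 had 126, MCM5 had 89.2 and MCM6 had 79.9. These levels depend on the transcript chosen for the length.

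**Figure D3:**
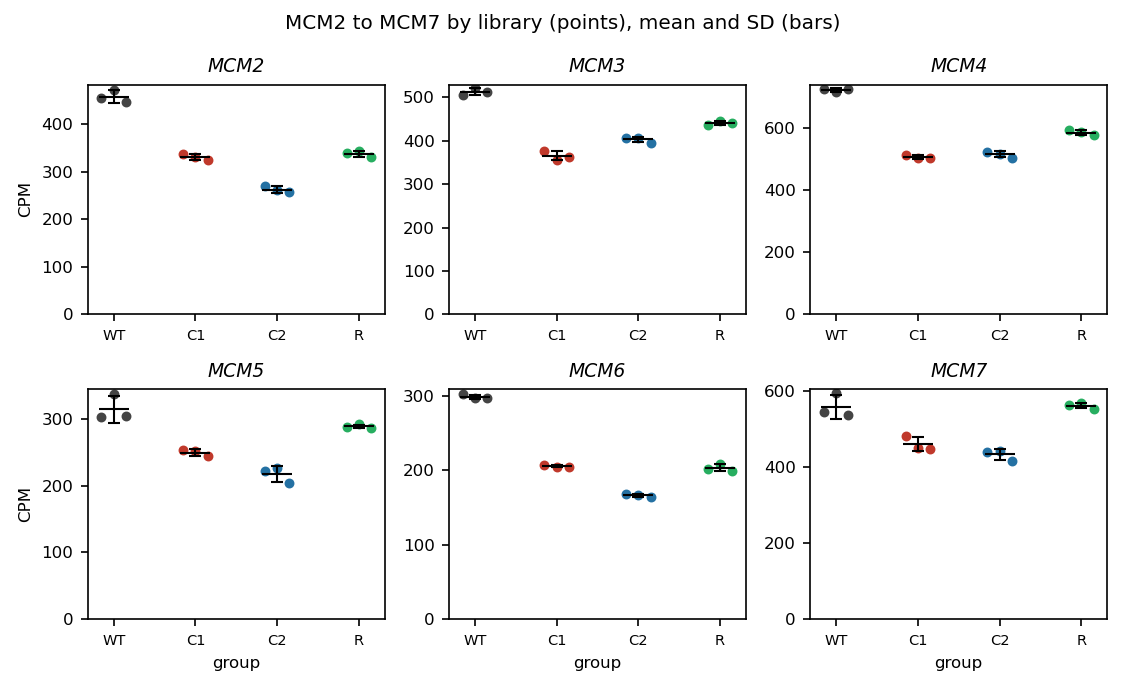
CPM of MCM2 to MCM7 in each library (points), with the mean and SD of each group (n = 3) as bars, for wild-type (WT), clone 1 (C1), clone 2 (C2) and the libraries labelled rescue (R). For each subunit the wild-type points lie above those of clone 1 and clone 2, and the points labelled rescue lie above those of clone 2.

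The origin recognition complex, which marks origins and is needed to load the ring, did not move as one in clone 2. In clone 1 all 6 subunits fell, by between 0.17 for ORC5 and 0.47 for ORC1 on the log2 scale. The call of ORC5 was lost without wild-type replicate 1, with a log2 fold change of -0.14. In clone 2 ORC1 and ORC4 fell, ORC2 and ORC3 rose, and ORC5 and ORC6 were at log2 fold changes of -0.10 and -0.07 with adjusted p = 0.128 and 0.137. These shares, 33.3% lower and 33.3% higher, were near the 30.6% and 31.5% of all genes tested. ORC2 was at 63.0, 58.8 and 59.3 CPM in wild-type, 51.9, 51.5 and 54.0 in clone 1, 65.9, 68.7 and 68.1 in clone 2, and 67.3, 66.1 and 66.5 in the libraries labelled rescue. ORC3 was at 59.6, 59.7 and 61.6 CPM in wild-type, 48, 47.0 and 45.4 in clone 1, 65.9, 68.4 and 68.1 in clone 2, and 70.9, 71.3 and 73.8 in the libraries labelled rescue. In both genes clone 1 was the lowest group and clone 2 lay above wild-type without overlap. Their rise in clone 2 was 0.16 on the log2 scale (SE 0.041, adjusted p = 0.00083 for ORC2 and 0.000846 for ORC3). ORC1, the subunit whose level varies most with the cell cycle, went from 111 ± 5.01 CPM (SD, n = 3) in wild-type to 80.0 ± 1.73 in clone 1 and 88.4 ± 2.86 in clone 2, and was at 113 ± 1.14 in the libraries labelled rescue. ORC4 fell by 0.37 and 0.45 and was at 49 ± 1.41 CPM in the libraries labelled rescue against 47 ± 1.11 in clone 2 and 64 ± 4.39 in wild-type.

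Of the pair that loads the ring, CDC6 fell in both clones and CDT1 was called in neither. CDC6 had 101 ± 2.63 CPM in wild-type, 73.6 ± 0.238 in clone 1 and 87.8 ± 0.221 in clone 2, and stood at 103 ± 2.71 in the libraries labelled rescue. CDT1, which the inhibitor geminin holds back after origins fire, was at 70.7 ± 0.94 CPM in wild-type and 66.4 in each clone (adjusted p = 0.0582 and 0.0702). It rose to 81.8 ± 2.43 CPM in the libraries labelled rescue, by 0.30 (SE 0.041, adjusted p = 1.32e-07) against clone 2 and by 0.21 (SE 0.040, adjusted p = 2.01e-05) against wild-type.

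Among the 6 genes that turn the ring into the active helicase, all fell in clone 1 and 5 in clone 2. CDC45, which binds the side of the ring, went from 111 ± 6.01 CPM in wild-type to 81.6 ± 3.75 in clone 1, had 107 ± 3.08 in clone 2 (log2 fold change -0.05, adjusted p = 0.245), and rose to 138 ± 3.9 in the libraries labelled rescue. GINS4, a subunit of the GINS complex encoded on chromosome 8, was at 35.3, 38.3 and 35.8 CPM in wild-type, 34.4, 32.9 and 32.3 in clone 1, 25.7, 27.8 and 24.8 in clone 2, and 35.4, 36.2 and 36.5 in the libraries labelled rescue. Clone 2 stood apart below the other 3 groups. GINS4 fell by 0.48 there (SE 0.054, adjusted p = 3.1e-10) and rose by 0.47 from clone 2 to the libraries labelled rescue (SE 0.053, adjusted p = 2.26e-09). Its fall of 0.14 in clone 1 was lost without wild-type replicate 2 (-0.10) or clone 1 replicate 2 (-0.12) or 3 (-0.13). The median of the other genes of chromosome 8 was -0.21 in clone 1 and -0.22 in clone 2. GINS1, GINS2 and MCM10 fell in both clones, by between 0.13 and 0.39. GINS3 fell by 0.27 in clone 1, while its fall of 0.14 in clone 2 was lost under 8 alternatives, among them upper quartile scaling, with -0.07.

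All 4 genes of polymerase alpha and primase, which lay down the primers, fell in both clones. POLA1, the catalytic subunit, was at 144 ± 1.56 CPM in wild-type, fell to 105 ± 3.34 in clone 1 and 128 ± 2.98 in clone 2, and was at 130.2 ± 2.24 in the libraries labelled rescue. POLA2, its partner encoded on chromosome 11, went from 114 ± 1.03 CPM to 78.3 ± 2.92, 72 ± 1.2 and 85.8 ± 3.23. The primase subunits PRIM1 and PRIM2 fell by 0.24 and 0.40 in clone 1 and by 0.10 and 0.33 in clone 2. The call of PRIM1 in clone 2 was lost under 5 alternatives, among them upper quartile scaling, with -0.03.

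Of the 5 genes of polymerases delta and epsilon, 2 fell in clone 1, a share (40%) near the 30.7% of all genes, and 4 (80%) in clone 2, against 30.6% of all genes. POLD3, an accessory subunit of polymerase delta (ENSG00000077514, hg38 chromosome 11, 74493851 to 74669117, plus strand), was at 90.5, 91.0 and 90.7 CPM in wild-type, 73.2, 73.4 and 71.0 in clone 1, 48.9, 42.9 and 50.4 in clone 2, and 50.3, 53.2 and 48.7 in the libraries labelled rescue. Clone 2 and the libraries labelled rescue overlapped, and both were below clone 1 and wild-type. Its fall in clone 2 was 0.93 on the log2 scale (SE 0.046, adjusted p = 1.03e-20), the largest fall in that clone, and its change from clone 2 to the libraries labelled rescue was 0.09 (SE 0.048, adjusted p = 0.123). POLD2 fell by 0.15 and 0.22. POLE, the catalytic subunit of polymerase epsilon, fell by 0.22 in clone 2 (SE 0.039, adjusted p = 4.91e-06) while clone 1, at 311 ± 12.7 CPM, was not called against wild-type, at 303 ± 15.2. POLE2 likewise fell by 0.22 in clone 2 and was at 26.6 ± 0.483 CPM in clone 1 against 28.1 ± 1.92. POLD1, the catalytic subunit of polymerase delta, was called in neither clone, with 116 ± 3.31 CPM in wild-type, 122 ± 2.31 in clone 1 and 114 ± 5.55 in clone 2.

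The sliding clamp and its loader fell throughout in clone 1 and in 4 of 6 genes in clone 2. PCNA, the ring that tethers polymerases to DNA (ENSG00000132646, hg38 chromosome 20, 5114953 to 5126626, minus strand), was at 328, 339 and 326 CPM in wild-type, 268, 259 and 259 in clone 1, 308, 301 and 313 in clone 2, and 372, 393 and 372 in the libraries labelled rescue. The 4 groups did not overlap, and the libraries labelled rescue were the highest. PCNA fell by 0.34 in clone 1 (SE 0.032, adjusted p = 4.53e-12) and by 0.11 in clone 2 (SE 0.032, adjusted p = 0.0036), the latter lost with upper quartile scaling, with -0.04. RFC3, a subunit of the clamp loader encoded on chromosome 13, was at 136, 137 and 141 CPM in wild-type, 79.7, 83.4 and 83.3 in clone 1, 117, 118 and 115 in clone 2, and 124, 127 and 120.4 in the libraries labelled rescue. Clone 1 was far below the other 3 groups, with a fall of 0.75 (SE 0.036, adjusted p = 3.37e-21), while in clone 2 it fell by 0.25 (SE 0.035, adjusted p = 7.77e-08). Over the rest of chromosome 13 the medians were -0.29 in clone 1 and 0.11 in clone 2. RFC1, RFC2, RFC4 and RFC5 fell in clone 1 by between 0.14 and 0.34. In clone 2 RFC4 and RFC5 fell by 0.31 and 0.37, and RFC1 and RFC2 were at -0.06 and -0.08 (adjusted p = 0.101 and 0.0603).

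Both genes that finish lagging strand fragments fell in both clones. FEN1, the flap nuclease, encoded on chromosome 11, was at 290.0, 296 and 288 CPM in wild-type, 243, 240.5 and 242 in clone 1, 182, 178 and 175 in clone 2, and 187, 196 and 189 in the libraries labelled rescue. It fell by 0.27 in clone 1 (SE 0.031, adjusted p = 8.09e-10) and by 0.71 in clone 2 (SE 0.032, adjusted p = 5.93e-22), and the libraries labelled rescue stayed close to clone 2. LIG1, the DNA ligase of replication, on chromosome 19, had 44.2 ± 2.29 CPM in wild-type, 27.4 ± 0.976 in clone 1 and 29.3 ± 1.83 in clone 2, falls of 0.69 (SE 0.053, adjusted p = 1.36e-14) and 0.59 (SE 0.053, adjusted p = 1.07e-12). It stood at 36.4 ± 0.496 CPM in the libraries labelled rescue.

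Replication protein A, which coats single-stranded DNA in replication and repair alike, had few calls in the clones. In clone 1 RPA1, RPA2 and RPA3 had log2 fold changes of 0.06, -0.03 and -0.09 and adjusted p = 0.109, 0.47 and 0.166, so none was called. In clone 2 RPA2 fell by 0.11 (SE 0.037, adjusted p = 0.00753), a call lost with upper quartile scaling, with -0.04, and RPA1 and RPA3 were at -0.04 and -0.01. From clone 2 to the libraries labelled rescue RPA1, RPA2 and RPA3 rose by 0.09, 0.11 and 0.24, the first pair again not called with upper quartile scaling, with 0.06 and 0.08.

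The nucleotide genes held the 2 largest falls in clone 1 and the 2 largest differences between the clones. TYMS makes thymidylate from deoxyuridylate (ENSG00000176890, hg38 chromosome 18, 657604 to 673578, plus strand; promoter shown above). It was at 88.4, 79.8 and 83.6 CPM in wild-type, 41.2, 41.4 and 39.9 in clone 1, 51.6, 52.3 and 50.7 in clone 2, and 71.1, 76.2 and 68.2 in the libraries labelled rescue. The 4 groups did not overlap, with clone 1 at the bottom. TYMS fell by 1.04 in clone 1 (SE 0.046, adjusted p = 1.92e-22) and by 0.70 in clone 2 (SE 0.045, adjusted p = 3.5e-17), while the medians over the rest of chromosome 18 were -0.35 and -0.36.

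Ribonucleotide reductase, which makes deoxynucleotides from ribonucleotides, joins a large subunit, RRM1, to a small one, RRM2. RRM2 (ENSG00000171848, hg38 chromosome 2, 10120698 to 10131419, plus strand) was at 473, 465 and 472 CPM in wild-type, 251, 249 and 238 in clone 1, 468, 479 and 472 in clone 2, and 672, 702 and 654 in the libraries labelled rescue. RRM1 (ENSG00000167325, hg38 chromosome 11, 4094707 to 4138876, plus strand) was at 322, 309.5 and 313 CPM in wild-type, 279, 274 and 267 in clone 1, 177, 169.8 and 172 in clone 2, and 197, 205 and 194 in the libraries labelled rescue. The subunits thus went different ways: RRM2 was lowest in clone 1, overlapped with wild-type in clone 2 and was highest in the libraries labelled rescue, while RRM1 was lowest in clone 2. RRM2 fell by 0.93 in clone 1 (SE 0.032, adjusted p = 3.61e-26) and was at 0.01 in clone 2 (SE 0.031, adjusted p = 0.821). RRM1 fell by 0.21 in clone 1 (SE 0.032, adjusted p = 4.34e-07) and by 0.87 in clone 2 (SE 0.033, adjusted p = 2.61e-24), where the median over the rest of chromosome 11 was -0.60.

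TK1, the thymidine kinase of the salvage route (ENSG00000167900, hg38 chromosome 17, 78174075 to 78187233, minus strand), was the only one of the 48 that rose in clone 1. It was at 262, 285 and 253 CPM in wild-type, 325, 309 and 316 in clone 1, 165, 161 and 151 in clone 2, and 216, 218 and 215 in the libraries labelled rescue. None of the 4 groups overlapped, clone 1 being highest and clone 2 lowest. The log2 fold change was 0.25 in clone 1 (SE 0.036, adjusted p = 1.3e-07) and -0.74 in clone 2 (SE 0.038, adjusted p = 2.78e-20). DUT, which removes dUTP so that uracil is not built into DNA, was at 135, 133 and 133 CPM in wild-type, 92.5, 96.7 and 95.1 in clone 1, 113, 116 and 111 in clone 2, and 147, 158 and 144 in the libraries labelled rescue. It fell by 0.50 in clone 1 (SE 0.038, adjusted p = 8.01e-15) and by 0.24 in clone 2 (SE 0.037, adjusted p = 4.55e-07), and its groups were in the same order as those of PCNA.

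The 3 regulators of S phase entry all fell in clone 1, but only E2F1 fell in clone 2. E2F1 (ENSG00000101412, hg38 chromosome 20, 33675683 to 33686404, minus strand; promoter shown above) was at 143, 152 and 142 CPM in wild-type, 116, 119 and 125 in clone 1, 125, 125 and 120.3 in clone 2, and 152, 151 and 148 in the libraries labelled rescue. Both clones were below wild-type without overlap, by 0.28 (SE 0.036, adjusted p = 8.25e-09) and 0.24 (SE 0.036, adjusted p = 2.59e-07) on the log2 scale, and the libraries labelled rescue overlapped with wild-type. CCNE1 was at 7.59, 7.53 and 6.72 CPM in wild-type, 6.05, 5.40 and 5.72 in clone 1, 10.3, 9.82 and 8.89 in clone 2, and 9.84, 10.4 and 8.95 in the libraries labelled rescue. CCNE1 had the fewest reads of the 48 genes and the widest errors. It fell by 0.35 in clone 1 (SE 0.103, adjusted p = 0.00358) and rose by 0.42 in clone 2 (SE 0.094, adjusted p = 0.000173), without overlap in either case. CCNE2, the gene of cyclin E2, was at 26.9, 24.9 and 25 CPM in wild-type, 22, 20.2 and 20.9 in clone 1, 29.1, 29.5 and 25.6 in clone 2, and 33.4, 33.7 and 31.8 in the libraries labelled rescue. Clone 2 overlapped with wild-type, and its log2 fold change of 0.13 (SE 0.059, adjusted p = 0.0468) was not called under 14 alternatives, among them DESeq2, with adjusted p = 0.092. Leaving out wild-type replicate 2 or 3 or clone 2 replicate 1 or 2 took it to 0.11, 0.10, 0.09 and 0.09. CCNE2 lies on chromosome 8, whose other genes had a median of -0.21 in clone 1 and -0.22 in clone 2.

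**Figure D4:**
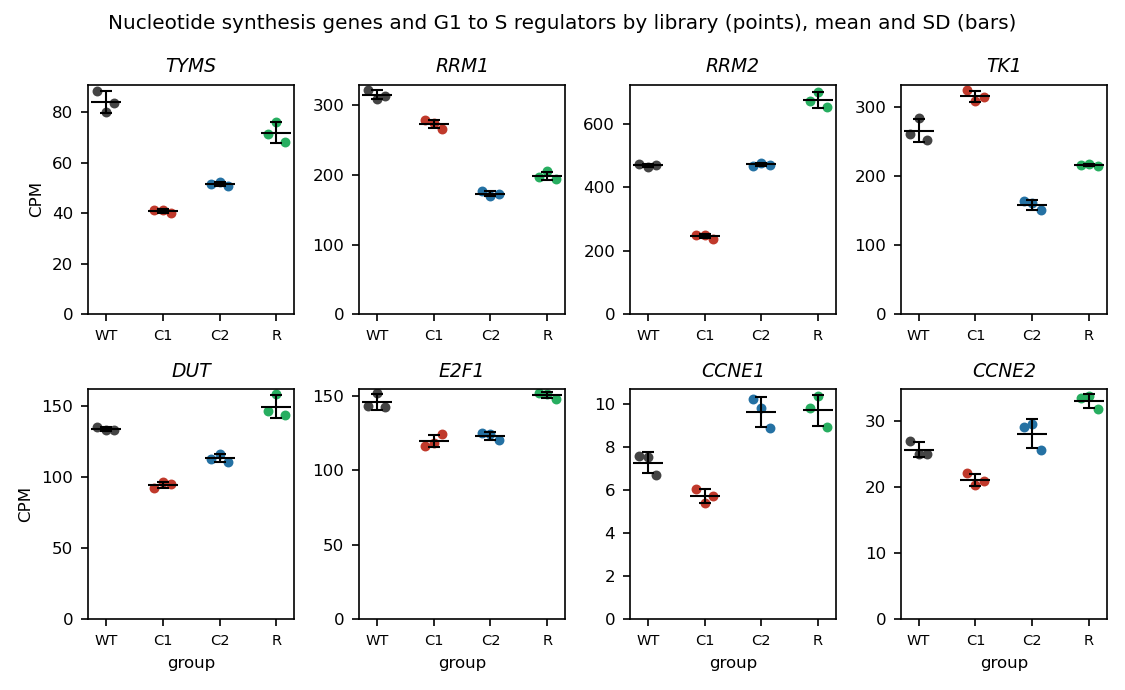
CPM of TYMS, RRM1, RRM2, TK1 and DUT and of the regulators E2F1, CCNE1 and CCNE2 in each library (points), with the mean and SD of each group (n = 3) as bars and the same group letters as for MCM2 to MCM7. TYMS, RRM2, DUT, CCNE1 and CCNE2 are lowest in clone 1, RRM1 and TK1 in clone 2, and TK1 is highest in clone 1.

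The libraries labelled rescue were next compared with clone 2. Of the 48 genes 41 (85.4%) rose and 0 fell, where 19.3% of all genes tested rose and 19.9% fell. The median log2 fold change was 0.24 against 0.00 for all genes. Without an adjustment of p 0 genes were lower and 42 higher at p under 0.05, and 0 were lower with DESeq2 or limma-voom. Against a change of 1.2-fold 10 genes rose, where 2.94% of all genes did, and 0 fell, where 7.74% did. The largest rises were RRM2, by 0.52 (SE 0.031, adjusted p = 2.94e-17), TYMS, by 0.48 (SE 0.045, adjusted p = 1.56e-11), and GINS4. TK1 rose by 0.44 (SE 0.038, adjusted p = 1.01e-12), MCM5 by 0.41 (SE 0.037, adjusted p = 7.24e-12) and DUT by 0.40 (SE 0.037, adjusted p = 7.64e-12). Not every rise was a return. RRM2, CDC45, CDT1, CCNE2, ORC5, ORC6, POLD1, RFC2, RPA1 and RPA3 rose, though none was called lower in clone 2 against wild-type. The 7 genes not called were ORC2, ORC3, ORC4, POLA1, POLD3, RFC1 and CCNE1, with log2 fold changes between -0.02 and 0.10. RFC3 was called at 0.09, but not under 9 alternatives, among them the DESeq2 Wald test, with adjusted p = 0.0633. This comparison shares the clone 2 libraries with that of clone 2 against wild-type, and the low clone 2 values enter both with opposite signs.

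Set against wild-type, the libraries labelled rescue had 19 genes lower and 13 higher, or 16 lower and 17 higher with upper quartile scaling, which moved the median of all genes from 0.00 to 0.05. Of all genes tested 29.9% were lower and 28.5% higher with TMM scaling, and 4470 of 17084 lower and 5537 higher with upper quartile scaling. With TMM scaling the median of the 48 genes was 0.00, as over all genes. The lowest were POLD3 at -0.84 (SE 0.045, adjusted p = 1.59e-19), RRM1 at -0.66 (SE 0.032, adjusted p = 8.64e-21) and FEN1 at -0.61 (SE 0.031, adjusted p = 5.31e-20), all on chromosome 11, over which the median of other genes was -0.55. The highest were RRM2 at 0.52 (SE 0.031, adjusted p = 3.39e-18), CCNE1 at 0.42 (SE 0.092, adjusted p = 0.000125) and CCNE2 at 0.37 (SE 0.057, adjusted p = 5.06e-07). CDC45 was higher by 0.32 and PCNA by 0.20. Against a change of 1.2-fold 7 genes were lower, where 14.9% of all genes were, and 3 higher, where 15% were.

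The clones were also compared with each other. In clone 2 against clone 1 16 genes were lower and 18 higher, where 31.9% of all genes tested were lower and 30.3% higher. The median was 0.04 against 0.00 over all genes. With upper quartile scaling 11 were lower and 25 higher. Of all 17084 genes tested 4689 were then lower and 6096 higher, with a median of 0.06. With TMM scaling TK1 was lower by 0.99 (SE 0.037, adjusted p = 8.81e-25), RRM1 by 0.66 (SE 0.033, adjusted p = 1.04e-20) and POLD3 by 0.61 (SE 0.047, adjusted p = 9.09e-15). RRM1 and POLD3 lie on chromosome 11, over which the median of other genes was -0.56 in this comparison. RRM2 was higher by 0.94 (SE 0.032, adjusted p = 2.44e-26), CCNE1 by 0.77 (SE 0.099, adjusted p = 9.05e-09) and ORC3 by 0.53 (SE 0.042, adjusted p = 3.16e-14). The largest of these differences, 0.99, was near the largest fall of a clone against wild-type, 1.04 for TYMS. Against a change of 1.2-fold 5 genes were lower, where 18.5% of all genes were, and 7 higher, where 16.6% were.

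Genes of some whole chromosomes moved together, so each gene was set beside the median of the other genes of its chromosome at 1 CPM or more. POLA2, POLD3, FEN1 and RRM1 lie on chromosome 11, with a median of -0.60 in clone 2 and -0.01 in clone 1. In clone 2 POLA2 was 0.07 below that median, FEN1 0.11, RRM1 0.27 and POLD3 0.34. In clone 1 TYMS was 0.69 below the median of chromosome 18 and RFC3 0.46 below that of chromosome 13. Of the 48 genes 44 were below their chromosome's median in clone 1 and 42 in clone 2, with a median difference of -0.27 and -0.22. In the libraries labelled rescue against clone 2 47 were above it, with a median difference of 0.21. With the 6 genes on chromosomes 11, 13 and 18 set aside, 34 of 42 fell in clone 1, 28 of 42 fell in clone 2 and 36 of 42 rose in the libraries labelled rescue against clone 2. Of all genes tested, on any chromosome, 30.7% fell, 30.6% fell and 19.3% rose in these comparisons. Other chromosomes whose genes moved together were kept. Among them were chromosome 8, with medians of -0.21 and -0.22 in clone 1 and clone 2, and chromosome 19, with 0.20 and 0.15.

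**Figure D5:**
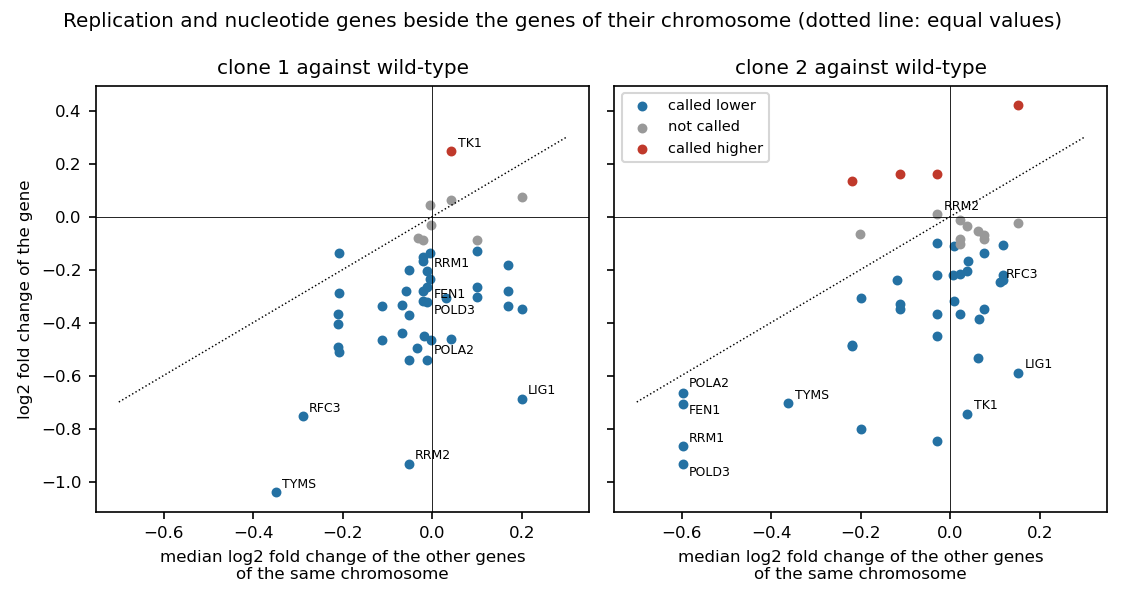
Log2 fold change of each of the 48 genes against the median log2 fold change of the other genes of its chromosome, in clone 1 and in clone 2 against wild-type, with a dotted line where both are equal. Most points lie below the line, and in clone 2, where the other genes of chromosome 11 have a median of -0.60, POLA2 and FEN1 lie 0.07 and 0.11 under the line and RRM1 and POLD3 lie 0.27 and 0.34 under it.

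Some members share exonic bases with other annotated genes, and whether the counting used the strand is not given in the sources used here. The gene ENOSF1, on the opposite strand, covers 39.2% of the exonic bases of TYMS, and INTS8 covers 37.1% of those of CCNE2. A same-strand gene model covers 35.1% of POLA2 and another 20.2% of RRM2, and antisense models cover 22.7% of MCM2 and 21.2% of GINS4. The values of these 6 genes are less certain for that reason.

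Other genes of the same pathways were counted from lists of their members, to be read against the shares of all genes tested: 30.7% fell and 30.8% rose in clone 1, 30.6% fell and 31.5% rose in clone 2, and 19.9% fell and 19.3% rose in the libraries labelled rescue against clone 2. Of 33 other replication factors 23 fell and 4 rose in clone 1, 23 fell and 3 rose in clone 2, and 22 rose and 1 fell in the libraries labelled rescue against clone 2. Their medians were -0.19, -0.21 and 0.14 on the log2 scale, against 0.01, 0.01 and 0.00 over all genes tested. ASF1A, a histone chaperone, fell by 1.02 in clone 1 (SE 0.051, adjusted p = 1.87e-20), and TICRR, which brings CDC45 to origins, by 0.73 (SE 0.038, adjusted p = 4.49e-20). CDC7, the kinase that starts origin firing, fell by 0.66 in clone 2 (SE 0.042, adjusted p = 6.8e-17), and RNASEH2C, a ribonuclease subunit encoded on chromosome 11, by 0.91 (SE 0.059, adjusted p = 6.38e-17). POLD4, the small subunit of polymerase delta, rose in clone 1 from 1.53 to 3.45 CPM, and CHTF18, of an alternative clamp loader, rose by 0.71 in clone 1 and 0.25 in clone 2. ASF1B, another histone chaperone of this family, rose by 0.45 in clone 2.

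Of 18 deoxynucleotide genes outside the 48, 8 fell (44.4%) and 4 rose (22.2%) in clone 1, where 30.7% and 30.8% of all genes did. In clone 2 10 fell (55.6%) and 4 rose (22.2%), against 30.6% and 31.5%, and in the libraries labelled rescue against clone 2 3 fell (16.7%) and 7 rose (38.9%), against 19.9% and 19.3%. The medians were -0.06, -0.14 and -0.01. MTHFD2, of mitochondrial folate metabolism, fell by 0.37 in clone 1 (SE 0.033, adjusted p = 5.69e-13). DCTD, which feeds deoxyuridylate to TYMS, rose by 0.35 in clone 1 (SE 0.047, adjusted p = 2.5e-08) and fell by 0.72 in clone 2 (SE 0.051, adjusted p = 1.26e-15), and TK2, the mitochondrial thymidine kinase, rose by 0.71 in clone 1 and fell by 0.46 in clone 2. NT5M and NME2, both under 4 CPM, rose in clone 2 by 0.60 and 0.50. Of 18 genes of purine and pyrimidine ring synthesis 11 fell (61.1%) and 3 rose (16.7%) in clone 1, and 12 fell (66.7%) and 3 rose (16.7%) in clone 2, against the same shares of all genes. In the libraries labelled rescue against clone 2 8 rose (44.4%) and 3 fell (16.7%), the latter near the 19.9% of all genes. Their medians were -0.12, -0.15 and 0.10. ADSL, of purine synthesis, fell by 0.48 and 0.44 in the clones, PRPS1 by 0.34 in clone 1 and IMPDH2 by 0.34 in clone 2. CAD, which starts pyrimidine synthesis, rose by 0.81 in clone 2 (SE 0.038, adjusted p = 2.41e-21), from 569 to 998 CPM, and ATIC by 0.27. IMPDH1, a guanine nucleotide enzyme, rose by 0.66 in clone 1 (SE 0.035, adjusted p = 8.7e-20), and GUK1 by 0.25.

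Of 29 other E2F and G1 to S regulators tested 20 fell (69.0%) and 5 rose (17.2%) in clone 1, where 30.7% and 30.8% of all genes did. In clone 2 17 fell (58.6%) and 8 rose (27.6%), against 30.6% and 31.5%, and in the libraries labelled rescue against clone 2 11 rose (37.9%) and 6 fell (20.7%), against 19.3% and 19.9%. The risers of clone 2 and the fallers of the last comparison were thus near the share of all genes. The medians were -0.38, -0.21 and 0.04. CDKN1A, the gene of the CDK inhibitor p21, was at 20.4, 24.6 and 22 CPM in wild-type, 56.3, 53.3 and 58.2 in clone 1, 83.8, 78.6 and 81.1 in clone 2, and 46.7, 48.2 and 48.9 in the libraries labelled rescue. The groups did not overlap, and CDKN1A rose by 1.33 in clone 1 (SE 0.054, adjusted p = 1.54e-23) and by 1.87 in clone 2 (SE 0.052, adjusted p = 1.2e-28). CDK6, a kinase that phosphorylates RB, fell in clone 1 from 2.54 to 0.315 CPM and rose in clone 2 to 13.9 CPM. CCND2, the gene of cyclin D2, fell in both clones, from 76 reads over the 3 wild-type libraries to 1 read in clone 1 and 0 in clone 2. CDKN1C, of chromosome 11, fell in clone 2 from 33 reads to 3. E2F7, a repressive E2F factor, rose by 0.53 in clone 1 (SE 0.043, adjusted p = 5.8e-14).

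Genes of the G2 and M phases were counted beside the replication genes. Of 20 such genes 11 fell (55%) and 3 rose (15%) in clone 1, where 30.7% and 30.8% of all genes did, 19 fell (95%) in clone 2, against 30.6%, and 20 rose in the libraries labelled rescue against clone 2, against 19.3%. Their medians were -0.16, -0.39 and 0.36. Their summed level was 4309 to 4383 CPM in wild-type, 4105 to 4235 in clone 1, 3310 to 3376 in clone 2 and 4195 to 4309 in the libraries labelled rescue. In this sum clone 1 lay just under wild-type and clone 2 well below both, whereas the sums of the 48 replication and nucleotide genes overlapped between the clones. KIF23 and CCNB2, of cytokinesis and of mitotic entry, fell by 0.99 and 0.88 in clone 2 (SE 0.038 and 0.042), and HMMR and NDC80 by 0.60 and 0.49 in clone 1 (SE 0.048 and 0.047). NDC80 lies on chromosome 18, where the median in clone 1 was -0.35. KIF20A and CENPE rose by 0.27 and 0.18 in clone 1.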

How the data were processed

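Polyadenylated RNA of TC71 cells was sequenced in 12 libraries made with a stranded mRNA kit, per the labels' protocols, and titles gave each library its group. The authors deposited a table of unnormalised read counts, with genes in rows and libraries in columns, all of which were used. FastQC and STAR are named for read quality and alignment, and hg38 as the build, in the submitters' processing notes, without versions. What counted the reads, with which strand setting, annotation and filter, was not given in the sources used here.

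Gene symbols were found for 20717 of the 21569 identifiers and hg38 coordinates, in GENCODE 29, for 20825. The test was the quasi-likelihood F test of edgeR 4.0.16 (R 4.3.3), in a single fit of the 12 libraries with TMM factors, a mean for each of 4 groups and 8 residual degrees of freedom. The filterByExpr function at a minimum count of 10 left 17084 genes, over which p-values were adjusted by Benjamini-Hochberg, and calls were made at an adjusted p under 0.05. Levels are CPM. The common biological coefficient of variation was 2.95%. No 2 libraries of a group agreed within sampling noise, so none was merged. Depth was 19420408 to 29748084 counts per library.

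The 48 genes and the other lists were chosen with earlier results of these data known. All 48 could be named. Values of every library are given for MCM2 to MCM7, the nucleotide genes, PCNA, E2F1, CCNE1, CCNE2 and the 3 called genes that fell and rose most in each comparison. Of the other lists, the 2 called genes that fell and rose most in each clone are named, except 1 whose result is not reported here. Promoter windows are those of RefSeq, printed up to at most 30 bases into an exon of GENCODE 29. The alternatives were other scaling (DESeq2 size factors, upper quartile), other filters (none, or 1 CPM in 3 libraries), other tests (DESeq2 1.42.0, limma-voom in limma 3.58.1, or edgeR against 1.2-fold), fits of only the groups compared or with a replicate block, and leaving out chromosomes 11, 13 and 18 or each library. The fit was also checked on simulated counts.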

Additional observations from a re-analysis of the deposited data

Results flagged for a closer look

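In 5 of the 48 genes the clones differed from wild-type in opposite directions, and the difference between the clones passed edgeR's quasi-likelihood test over all genes (Benjamini-Hochberg adjusted p). TK1 was at 0.25 in clone 1 and -0.74 in clone 2 on the log2 scale, a clone 2 minus clone 1 difference of -0.99 (adjusted p = 8.81e-25). CCNE1 was at -0.35 and 0.42, a difference of 0.77 (adjusted p = 9.05e-09). ORC3 was at -0.37 and 0.16, a difference of 0.53 (adjusted p = 3.16e-14). ORC2 was at -0.20 and 0.16, a difference of 0.36 (adjusted p = 7.34e-10). CCNE2 was at -0.29 and 0.13, a difference of 0.42 (adjusted p = 1.15e-07), but its rise in clone 2 was lost under 14 alternatives.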

How the results depend on the processing

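Of 186 calls of single genes over the 5 comparisons, 163 held under all alternatives run on them other than the test against 1.2-fold, and 23 were lost under at least 1, with none reversed. Genes of chromosomes 11, 13 and 18 have no value in the fit that leaves those out. Upper quartile scaling took 18 of the 186. That 1.2-fold test (edgeR) gave 20 genes lower and 0 higher in clone 1 (40 and 1 otherwise), 18 and 1 in clone 2 (34 and 4), 10 higher in the libraries labelled rescue against clone 2 (41), 7 lower and 3 higher there against wild-type (19 and 13), and 5 lower and 7 higher in clone 2 against clone 1 (16 and 18). A fit of only the groups compared gave 2 genes higher in clone 1. Leaving out each library in turn gave 39 to 41 lower and 1 to 2 higher in clone 1, and 33 to 37 lower and 3 to 4 higher in clone 2. The libraries labelled rescue then had 39 to 42 higher and 0 lower against clone 2, and 16 to 19 lower and 12 to 14 higher against wild-type. Clone 2 against clone 1 had 13 to 18 lower and 18 to 20 higher. The median log2 fold change of the 48 genes in clone 2 was -0.16 with upper quartile scaling and -0.26 without a filter. Over all genes it was 0.08 and 0.01 there. For the libraries labelled rescue against clone 2 without rescue replicate 3 the median of the 48 genes was 0.27, against 0.01 over all genes. With upper quartile scaling it was 0.05 for the libraries labelled rescue against wild-type, as over all genes. For clone 2 against clone 1 it was then 0.10, against 0.06 over all genes.

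Pairing by the replicate numbers of the titles was checked by correlating how far libraries lay from their group mean. Same-numbered libraries had r between -0.036 and 0.052 over all genes tested. Over the 9543 genes at 10 CPM or more, a set chosen after seeing the data, r was 0.128, 0.198 and 0.188 between the clones. Between wild-type and clone 2 it was -0.028, 0.177 and 0.262, and between wild-type and clone 1 -0.020, 0.048 and 0.189. It was as low as -0.129 between clone 1 and the libraries labelled rescue. The numbers may thus pair some groups, but correlations between differently numbered libraries were not computed over these genes, so this cannot be decided. With a replicate block 41 genes fell and 1 rose in clone 1, 35 and 4 in clone 2, 17 and 18 in clone 2 against clone 1, and all 186 calls held. The effect of depth on these counts was not tested.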
